A study of Mus musculus with 3 samples.

Results

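The genes described are 8 leukocyte adhesion genes: Selplg, which encodes the selectin ligand PSGL-1, the integrin chain genes Itgam, Itgal, Itgb2, Itga4 and Itgb1, and the receptors Cd44 and Cd177. They were chosen by symbol from the 27998 genes of a single cell RNA sequencing (scRNAseq) count table of mouse meninges, and were read in the barcodes with at least 500 UMIs (unique molecular identifiers, each standing for 1 captured transcript), a number of detected genes within the limits of the study's own filter and under 8.3% mitochondrial UMIs. All mice were male C57BL/6J aged 10 to 12 weeks. Home cage (HC) mice were unstressed and gave 2 libraries, HC replicate 1 and HC replicate 2. Chronic social defeat (CSD) mice had 14 days of encounters with aggressive CD-1 residents, were picked as stress-susceptible from behavioural tests, and gave 1 library, CSD replicate 1 (a second CSD pool was lost at droplet encapsulation). Each library was a pool of 4 mice, from pial and arachnoid membranes together with the membranes of the skull cap, sorted for live nucleated singlets. The study's general methods flushed the vessels with saline and the dissection was done so as to limit marrow of the skull, but cells remaining from vessels or marrow cannot be told apart from tissue cells in these libraries. CSD therefore had no replicate, and the effect of defeat cannot be told apart from whatever else set that pool or its lane of the chip apart.

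Leukocytes leave blood vessels in steps. PSGL-1 and CD44 carry the glycans that selectins on endothelium hold during rolling, and chemokine signals then switch integrins, which are pairs of an alpha and a beta chain, to a state that binds ICAM or VCAM molecules for arrest and crawling. Itgb2 encodes the beta 2 chain, which pairs with the alpha chain of Itgal (LFA-1) or of Itgam (Mac-1), while Itgb1 and Itga4 together give VLA-4. CD177 is a surface protein of neutrophils that in humans binds PECAM-1 and associates with Mac-1.

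The 3 libraries held 9891861, 8814690 and 10206236 UMIs in all, in the order HC replicate 1, HC replicate 2 and CSD replicate 1, an order kept for every set of 3 values below. They gave 2599, 1702 and 2756 cells with a median of 2503, 2212 and 2400.5 UMIs, and between 3 and 8 barcodes were shared by each pair of libraries. HC replicate 2 stood apart in that 24.1% of its UMIs lay in barcodes of at most 100 UMIs, against 7.87% in HC replicate 1 and 5.48% in CSD replicate 1. Clusters were named from marker genes into 18 classes, of which mature neutrophils (486, 331 and 799 cells), immature neutrophils (295, 231 and 518) and a smaller early immature class (54, 47 and 78) form the neutrophil stages. The early immature cells of HC replicate 2 had a median of 1444 UMIs, against 10021.5 and 10196 in the other two libraries. Mature and immature neutrophils together were 30.1%, 33.0% and 47.8% of cells. A class of olfactory neurons, led by Omp and Stoml3 and not part of the meninges, was found in all 3 libraries with 62, 43 and 71 cells.

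Levels are given as CPM, the UMIs of a gene scaled to a common total (counts per 1e6 UMIs) over the summed cells of 1 class in 1 library, with the mean ± SD over the 3 libraries (n = 3). Every level is compared between cell classes for the same gene, never between genes. Transcripts free in the suspension add UMIs to every cell, and the CPM that free RNA was estimated to add is given where a level comes near it. For shares of cells with a UMI, each cell was first thinned to 500 UMIs, so that depth was equal. No test was made between classes, since the cells were sorted into classes on the same libraries, although the 8 genes and the wider adhesion list were kept out of the clustering.

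Selplg (chr5:113818536-113832644 of GRCm38, minus strand), whose protein is the main ligand of P-selectin on leukocytes, was highest in microglia, the resident macrophages of the brain. Its level there was 1755, 2148 and 1676 CPM, a mean of 1860 ± 253. The microglia class was led by genes that include P2ry12 and Tmem119. Plasmacytoid dendritic cells followed with 526, 630 and 641 CPM, then NK cells with 494, 497 and 508 CPM. These 3 classes did not overlap with one another or with the next class. Mature neutrophils (307, 322 and 432 CPM) and T cells (341, 327 and 359 CPM) overlapped. Immature neutrophils held 103, 129 and 133 CPM, and early immature neutrophils 54.8, 76.2 and 74.7 CPM, where free RNA alone was estimated to give 79.4, 84.9 and 73.7 CPM. After thinning, a Selplg UMI was seen in 65.1%, 62.8% and 59.1% of microglia, in 15.6%, 14.5% and 18.8% of mature neutrophils and in 5.19%, 0% and 8.0% of fibroblasts, a class that should lack it. The median depth before thinning was 2091, 2309 and 1743 UMIs in microglia, 1271, 1325 and 1489 in mature neutrophils and 3418, 3302 and 3008 in fibroblasts. With 0 of 92 fibroblasts in HC replicate 2 the share may still be up to 3.26%. In early immature neutrophils it was 3.70%, 6.38% and 5.13%, above the fibroblast share in HC replicate 2 and below it in the other two libraries. By CPM, that stage showed no clear Selplg above free RNA in any library.

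Cd44 (chr2:102811141-102901665, minus strand), the receptor for hyaluronan that can also carry selectin-binding glycans, was highest in mature neutrophils with 273, 207 and 216 CPM. Immature neutrophils held 135, 136 and 115 CPM, below every mature value. Monocytes (118, 91.3 and 129 CPM) overlapped with immature neutrophils, and early immature neutrophils held 91.3, 76.2 and 56.0 CPM. Microglia were at 6.84, 22 and 21.7 CPM, under the 35.5, 31.2 and 23.1 CPM expected of free RNA, so the class with the most Selplg had no Cd44 above background.

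Itgb2 (chr10:77530252-77565708), the beta chain of LFA-1 and Mac-1, was spread over all myeloid classes and NK and T cells. It stood at 222, 197 and 170 CPM in mature neutrophils, 182, 212 and 193 CPM in immature neutrophils and 155, 207 and 113 CPM in the early immature stage, and these ranges overlapped. Basophils or mast cells overlapped them too, with 175 ± 97.9 CPM from 30 UMIs in all. Monocytes held 155, 165 and 110 CPM, NK cells 134, 149 and 98.4 CPM, and microglia 114, 128 and 114 CPM. Fibroblasts (17.6, 12.6 and 26.5 CPM) and pre-B cells (8.0, 24 and 37.7 CPM) lay at or under the level expected of free RNA in all but 1 value, the CSD pre-B cells, where 37.0 CPM was expected.

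Its partner Itgam, the alpha chain of Mac-1, was found on the myeloid side. Immature neutrophils held 178, 194 and 161 CPM, mature neutrophils 129, 167 and 117 CPM and microglia 125, 119 and 152 CPM. These 3 classes overlapped in part, and all 3 lay above the early immature stage, at 85.9, 110 and 107 CPM. Monocytes held 63.6, 51.8 and 65.1 CPM. T cells, with 13, 3.18 and 4.54 CPM against 20.9, 17.3 and 20.2 expected of free RNA, showed none above background. The files hold a second gene, ENSMUSG00000108596, under the symbol Itgam. It spans chr7:128062683-128128160 of GRCm38 on the same strand and overlaps Itgam (chr7:128062640-128118491), so reads in shared exons may have been given to neither gene and the Itgam level is uncertain. The second gene had a mean of 7.99 CPM in mature neutrophils.

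The alpha chain of LFA-1, Itgal (chr7:127296260-127335138), was highest in NK cells with 122, 116 and 88.1 CPM, which overlapped with mature neutrophils at 112, 80.4 and 81.0 CPM. Both lay above T cells, at 47.8, 79.4 and 56.7 CPM. Immature neutrophils held 61.8, 48.6 and 41.2 CPM. Microglia were at 13.7, 13.2 and 10.8 CPM, against 27.8, 12.9 and 13.1 expected of free RNA, so of the 2 alpha chains that pair with beta 2 here, microglia had Itgam and no measurable excess of Itgal.

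The VLA-4 chains had another distribution. Itga4 (chr2:79255426-79333123) was highest in NK cells (110, 116 and 124 CPM), just above T cells (107, 98.4 and 86.2 CPM), with plasmacytoid dendritic cells and monocytes (95.5, 86.3 and 76.2 CPM) overlapping T cells. Pre-B cells held 72.0, 72.0 and 63.7 CPM. Mature neutrophils were lower, at 32.6, 36.2 and 31.0 CPM, and immature neutrophils held 23.7, 12.1 and 9.06 CPM where free RNA was expected to give 9.68, 10.8 and 11.4 CPM, so HC replicate 1 alone stood clearly above it. Itgb1 (chr8:128685654-128733200), the beta chain shared by many integrins that bind matrix, was also highest in NK cells, at 215, 149 and 166 CPM. Fibroblasts followed with 110, 120 and 133 CPM and T cells with 111, 105 and 104 CPM. Endothelial cells had a mean of 149 ± 132 CPM, which rested on 11 UMIs. In mature neutrophils Itgb1 was at 17.0, 8.04 and 8.33 CPM beside 11.6, 16.3 and 11.7 expected of free RNA, so its partner Itga4 was measured in these cells and Itgb1 was not distinguishable from background.

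Cd177 (chr7:24743983-24760311, minus strand) lay above its free RNA level in all 3 libraries in the neutrophil stages, in monocytes and, on 18 UMIs in all, in basophils or mast cells. Immature neutrophils held 460, 507 and 512 CPM and early immature neutrophils 395, 567 and 510 CPM, which overlapped. Mature neutrophils held 205, 275 and 253 CPM, below both. Monocytes came next with 123, 136 and 71.4 CPM, overlapping with basophils or mast cells at 37.2, 86.3 and 135 CPM, where free RNA was expected to give 30.0, 38.6 and 103 CPM. In fibroblasts, which should lack it, Cd177 was at 29.4, 44.1 and 26.5 CPM, where free RNA was estimated to give 29.2, 38.3 and 55.7 CPM. After thinning, 21%, 22.1% and 20.7% of immature neutrophils (median depth 3541, 3358 and 3729 UMIs) had a Cd177 UMI, against 0.741%, 0% and 0% of fibroblasts. In the barcodes of at most 100 UMIs, Cd177 made up 104, 149 and 222 CPM, so its background was highest in the CSD library.

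**Figure D1:**
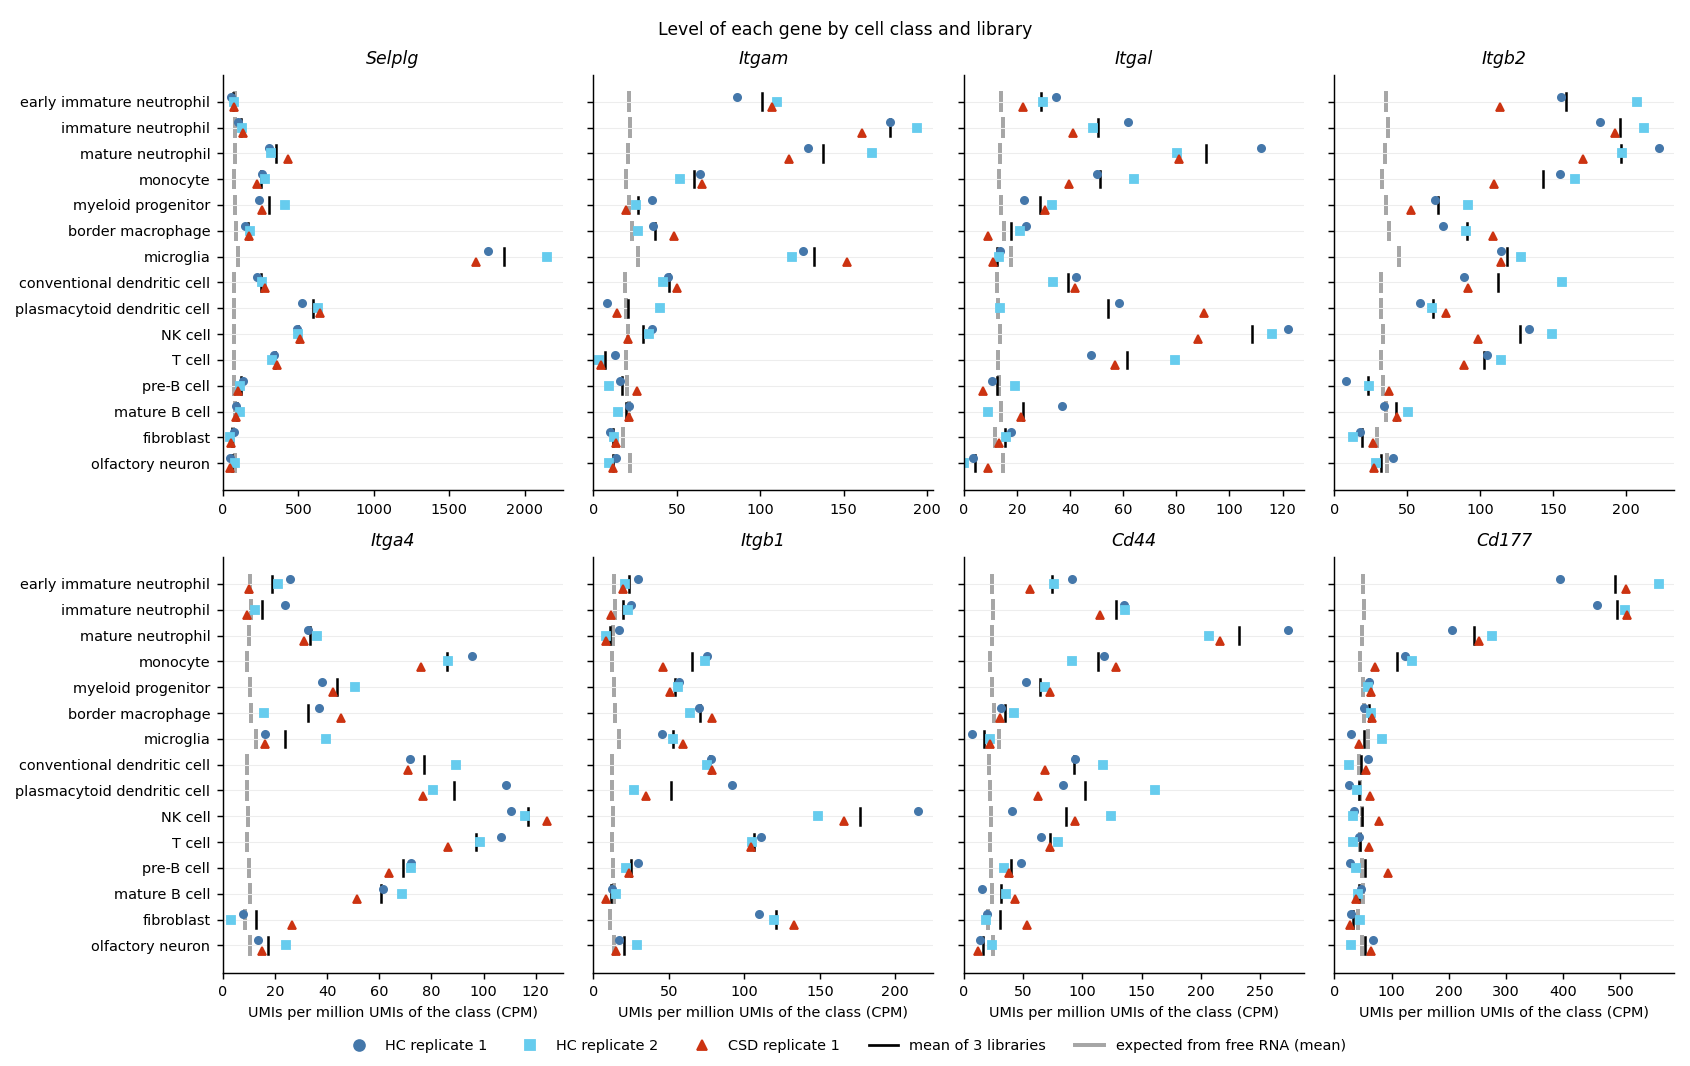
Level of each of the 8 adhesion genes (CPM) in the named cell classes, with 1 point per library, a bar for the mean and the estimated free RNA level. Selplg reached a mean of 1860 CPM in microglia, while Cd177 passed 200 CPM only in the neutrophil stages.

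Within neutrophils the question was how the adhesion genes are ordered along maturation, from early immature to immature to mature. A ratio of mature over immature CPM was taken within each library. Selplg had the largest mean, with a log2 value of 1.58, 1.32 and 1.70, a mean of 1.54 ± 0.20 or 2.90-fold. Free RNA was expected to give 83.6, 86.7 and 76.8 CPM of its level in immature cells, and with free RNA subtracted the mean levels were 276 CPM in mature and 38.9 CPM in immature cells, 7.10-fold. Cd44 (0.85 ± 0.22) and Itgal (0.85 ± 0.12) were 1.80-fold and 1.81-fold higher in mature cells, and Itga4 had 0.46, 1.58 and 1.78, above Selplg in HC replicate 2 and CSD replicate 1, but from only 23, 18 and 41 UMIs in the mature cells. With free RNA subtracted the mean Itga4 levels were 23.3 and 4.32 CPM, 5.39-fold. That ratio rests on an immature level that stood clearly above free RNA in HC replicate 1 alone. Cd177 went the other way, with -1.16, -0.88 and -1.02, a mean of -1.02 ± 0.14 or 2.03-fold lower in mature cells. Itgam was lower by a smaller step (-0.46, -0.22 and -0.46), and Itgb1 was lower (-0.53, -1.52 and -0.44) from values near the free RNA level. The second gene under the symbol Itgam went the other way (0.26, 0.14 and 1.51), on 24 UMIs in mature and 20 in immature cells. Itgb2 was higher in HC replicate 1 (0.29) and lower in HC replicate 2 (-0.11) and CSD replicate 1 (-0.18), a mean of 0.00 ± 0.25.

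Thus 4 of the 8 genes were higher in mature cells in all 3 libraries, where 35.9% of the 3864 genes with at least 100 UMIs were, and 3 of 8 were lower, where 23.3% were. With 8 genes these counts are not far from that background, and no test was made. Of 25 measured genes of the wider adhesion list, which also holds selectins, other integrin chains and the proteins that activate integrins, 13 were higher and 5 were lower in every library.

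Between the early immature and the immature stage the log2 ratio was positive in all 3 libraries for Selplg (0.90, 0.76 and 0.83), Itgam (1.05, 0.82 and 0.59), Itgal (0.83, 0.71 and 0.88), Cd44 (0.56, 0.84 and 1.03) and Itgb2 (0.23, 0.034 and 0.77). It was negative in all 3 for Itga4 (-0.11, -0.80 and -0.14), at levels near free RNA, and had no common direction for Itgb1 (-0.25, 0.12 and -0.81). Cd177 was even between these stages, with 0.22, -0.16 and 0.01. Itgam, counted without the second gene under its symbol, therefore peaked in the middle stage. Selplg, Cd44 and Itgal were highest in the last, and Cd177 was highest in the first and middle stages. The Selplg ratio is a description of a gene whose early level was that of free RNA.

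Mature neutrophils were divided further into cells with little and with much Il1b, which encodes the cytokine interleukin-1 beta. The Il1b-low cells (279, 202 and 557) were led by Mmp8, Wfdc21 and Retnlg and had a median of 1740.5 UMIs, the Il1b-high cells (207, 129 and 242) by Il1b, Fos and Csf3r with 954 UMIs. Cd177 was at 269, 342 and 289 CPM in the Il1b-low cells and at 64.1, 91.0 and 98.8 CPM in the Il1b-high cells, a log2 ratio of -1.84 ± 0.27 or 3.59-fold lower, with no overlap. Free RNA was estimated to give 36.3, 51.8 and 64.5 CPM of the latter, and with free RNA subtracted the mean levels were 254 and 33.7 CPM, 7.51-fold lower. Selplg ran the opposite way, at 258, 273 and 380 CPM in Il1b-low and 416, 455 and 652 CPM in Il1b-high cells, a log2 ratio of 0.73 ± 0.05 in 3 of 3 libraries. Itga4 rested on few UMIs but was at 22.6, 19.1 and 20.6 against 54.9, 83.4 and 75.1 CPM (with free RNA subtracted, 5.48-fold as a ratio of means beside 3.43-fold), and Itgal and Cd44 were also higher in the Il1b-high cells of every library. Itgb2 was lower there in every library (-0.46 as a mean log2 ratio), and Itgam had no common direction (-0.01, -0.18 and 0.14). The second gene under the symbol Itgam had means of 21.5 CPM in Il1b-high and 3.86 CPM in Il1b-low cells, on 14 and 10 UMIs.

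**Figure D2:**
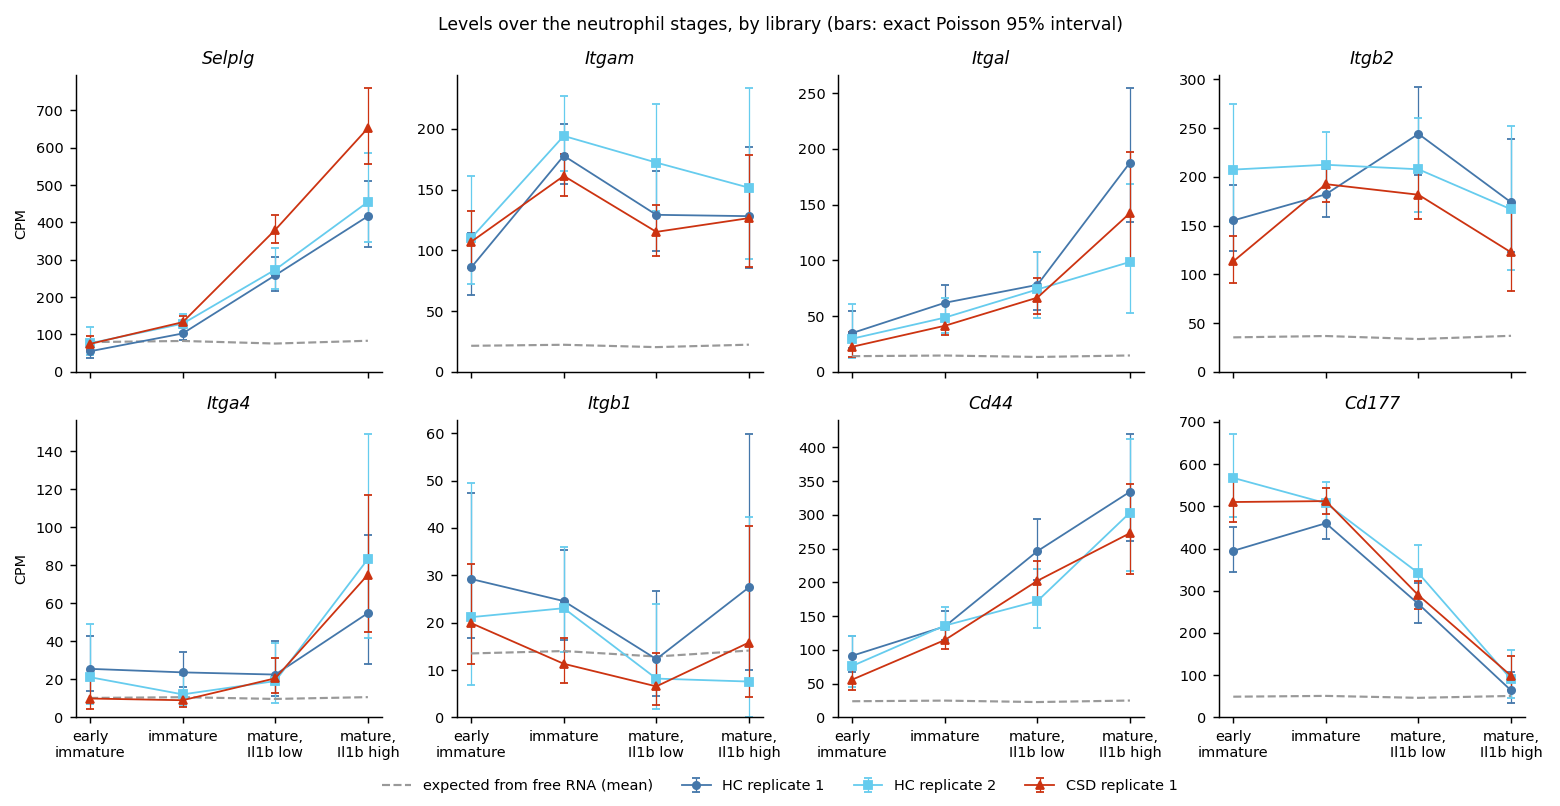
CPM of the 8 genes along the neutrophil stages (early immature, immature, Il1b-low mature, Il1b-high mature), with 1 line per library. Cd177 lay between 269 and 342 CPM in Il1b-low and between 64.1 and 98.8 CPM in Il1b-high mature cells, while Selplg was highest in the Il1b-high cells of all 3 libraries.

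The sequence before the gene start is shown for 3 genes with different courses over these stages: Cd177, which was lower in mature cells, Cd44, which was higher, and Itgam, which peaked between. They are the 250 bases before the start in the RefSeq promoter table of GRCm38.p6, which held 5 of the 8 genes (Itga4 and Itgb1 besides these), written 5′ to 3′ on the gene's strand. Capitals mark GAGGAA or its reverse complement TTCCTC, the core bound by the myeloid transcription factor PU.1, searched on both strands.
Cd177 (chr7:24760312-24760561, minus strand): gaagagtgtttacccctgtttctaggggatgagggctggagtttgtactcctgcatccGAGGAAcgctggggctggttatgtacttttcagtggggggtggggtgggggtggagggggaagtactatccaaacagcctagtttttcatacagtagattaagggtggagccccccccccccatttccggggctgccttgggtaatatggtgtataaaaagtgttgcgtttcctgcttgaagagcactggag
Cd44 (chr2:102901666-102901915, minus strand): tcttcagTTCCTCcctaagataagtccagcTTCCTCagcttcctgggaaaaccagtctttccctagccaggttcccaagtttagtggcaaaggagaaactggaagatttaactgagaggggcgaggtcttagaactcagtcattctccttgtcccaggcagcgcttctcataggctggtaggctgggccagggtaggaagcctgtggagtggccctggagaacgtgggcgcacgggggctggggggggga
Itgam (chr7:128062390-128062639, plus strand): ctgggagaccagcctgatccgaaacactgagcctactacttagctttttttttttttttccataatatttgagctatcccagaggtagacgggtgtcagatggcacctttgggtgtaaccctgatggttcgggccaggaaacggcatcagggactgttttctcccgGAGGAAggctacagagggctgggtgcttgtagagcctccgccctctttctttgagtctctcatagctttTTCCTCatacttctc
Cd177 had 1 match, whose first base lay 192 bases before the start. Cd44 had 2 matches, the nearer at 220 bases, and Itgam had 2, the nearer at 15 bases. Of the members not shown, Itga4 had 0 matches and Itgb1 had 1, at 9 bases. Such a match was found in the same 250 bases before the start in 23.3% of the 32851 promoters of the table, so the letters are common. A match is a description of sequence and no binding was measured.

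CSD was set against HC by summing UMIs per class and library and testing with edgeR's quasi-likelihood test (two-sided, Benjamini-Hochberg adjustment over all genes tested in the class, called at an adjusted p under 0.05). The spread came from the 2 HC libraries alone, with 1 residual degree of freedom before moderation across genes, so the lone CSD library had to be taken as equally variable. In mature and immature neutrophils together, 5 of the 8 genes had a UMI in over 15% of cells and were tested, while Itgal, Itga4 and Itgb1 were not. None of the 5 was called, beside 0.0841% of all 1189 genes tested (1 gene), and DESeq2 called none either. At an unadjusted p under 0.05 edgeR gave 1 of the 5, Selplg, beside 156 of all 1189 genes tested.

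Selplg in the pooled neutrophils had a log2 fold change, CSD over HC, of 0.44 (SE 0.12, adjusted p = 0.320 by edgeR). In mature neutrophils the CSD library held 432 CPM, above both HC libraries at 307 and 322 CPM, a log2 fold change of 0.51 (SE 0.16, adjusted p = 0.257). In immature neutrophils it was 0.28 (SE 0.18, adjusted p = 0.627), with 133 CPM in CSD beside 103 and 129 CPM. The CSD value was the highest in both kinds of mature cell, at 380 CPM beside 258 and 273 in Il1b-low cells and at 652 CPM beside 416 and 455 in Il1b-high cells. With every detected gene entered, whatever its share of cells, edgeR gave 0.66 (adjusted p = 0.0198) in the pooled and 0.78 (adjusted p = 0.0103) in the mature neutrophils, so the call depended on the 15% filter. That setting also raised the other members tested in the pooled neutrophils. Cd177 went from 0.16 to 0.37, Itgb2 from -0.06 to 0.16, Cd44 from -0.13 to 0.084 and Itgam from -0.17 to 0.047. The rise was therefore common to these genes and not particular to Selplg. Microglia, the class richest in Selplg, were 7.27%, 5.52% and 3.37% of cells. The 9 microglia markers summed to 411, 366 and 123 CPM in mature neutrophils, lowest in the CSD library, beside 19230 CPM in microglia, and were below the level expected of free RNA in each library. Whether RNA of microglia had a part in the Selplg values was not tested.

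The other neutrophil members stayed nearer to 0. Cd177 had 0.16 (SE 0.14) in the pooled neutrophils, Itgb2 -0.06 (SE 0.12), Cd44 -0.13 (SE 0.17) and Itgam -0.17 (SE 0.13). These signs were not stable, and each of the 4 changed direction under at least 1 alternative processing. A p above the threshold does not show that these levels were equal in HC and CSD.

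**Figure D3:**
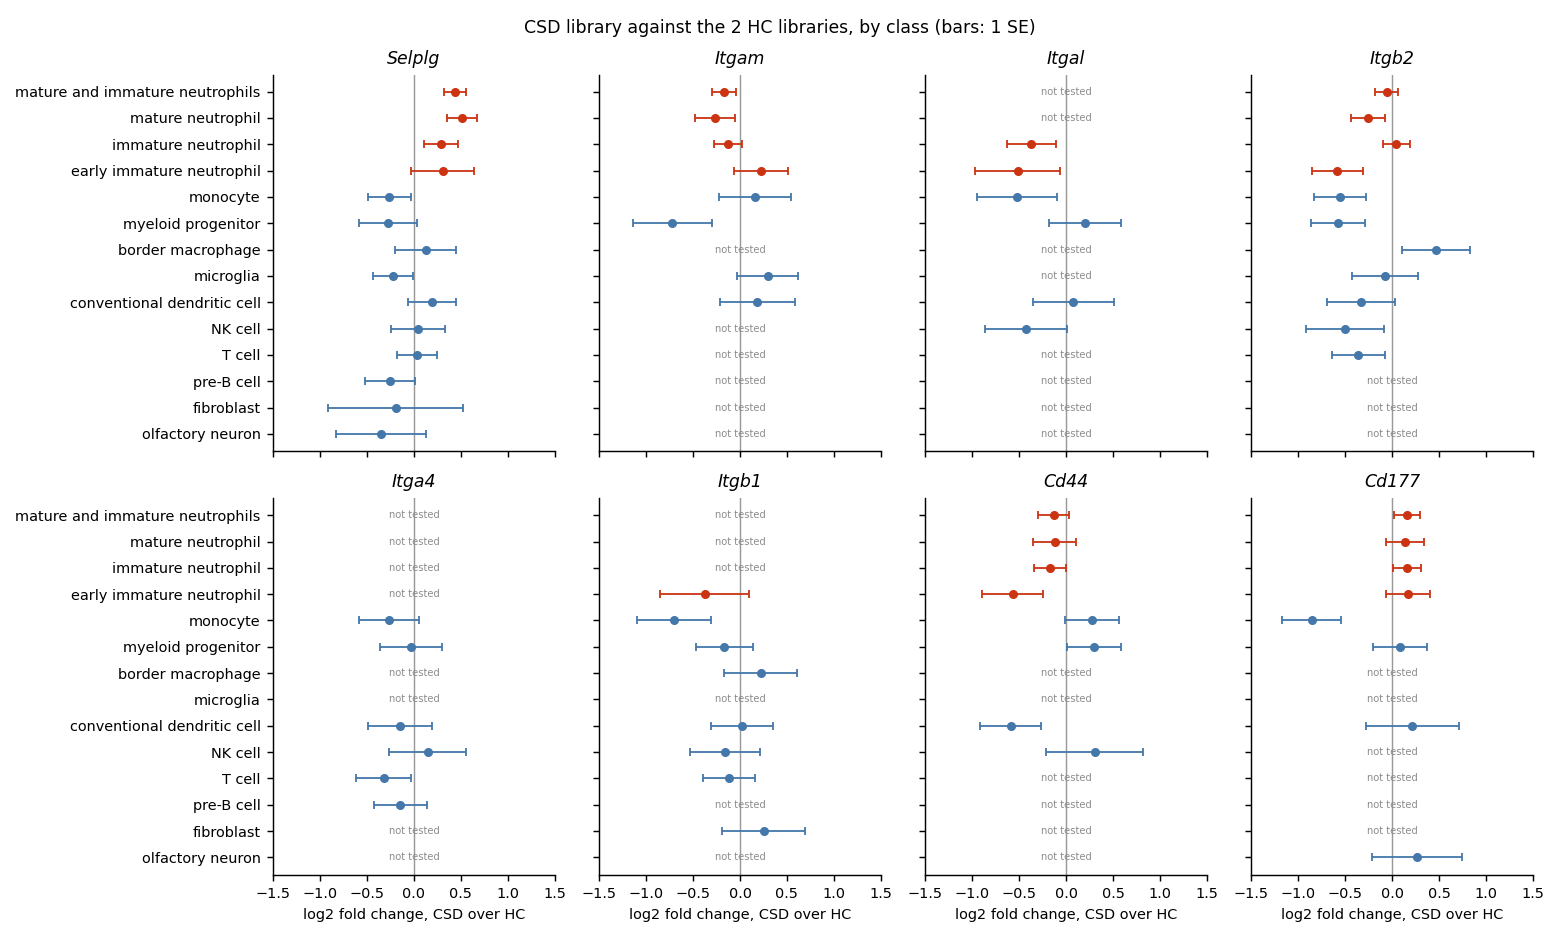
Log2 fold change, CSD over HC, of each gene in each class where it was tested, with bars of 1 SE (edgeR). The 64 values in single classes lay between -0.86 and 0.51 and none was called. Mature B cells, where no member was tested, are left out. Mature and immature neutrophils together are drawn in addition.

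Over the 14 classes with at least 20 cells in every library, the 8 genes gave 64 tests. Mature B cells were among these classes, but no member was tested there. None was called, where 0.376% of all 34600 tests of a gene in a class were. By edgeR 4 had an unadjusted p under 0.05, and by DESeq2 0 did. The 4 were Selplg in mature neutrophils, Itgb2 in early immature neutrophils, and Itgb2 and Cd177 in monocytes. In these classes, in that order, 147 of 869, 231 of 3569 and 294 of 3049 genes had such a p by edgeR, so it was common. There were 28 values above and 36 below 0. Itgb2, tested in 10 classes, was below 0 in 8 of them, with -0.58 (SE 0.27) in early immature neutrophils and -0.55 (SE 0.28) in monocytes. These classes share the same 3 libraries and are not independent of one another. Selplg, in 13 classes, was above 0 in 7 and below in 6, and its value in microglia was -0.23 (SE 0.22).

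The lowest of the 64 values was Cd177 in monocytes. Its level was 123 and 136 CPM in HC and 71.4 CPM in CSD, a log2 fold change of -0.86 (SE 0.31, adjusted p = 0.223 by edgeR). A Cd177 UMI was found in 42 of 94, 36 of 80 and 39 of 120 monocytes, with at most 3, 4 and 3 UMIs in a cell. The free RNA estimate for monocytes was 36.1, 38.2 and 58.6 CPM, highest in CSD, and with free RNA subtracted the log2 fold change was -2.93 (adjusted p = 0.943 by edgeR). In monocytes the markers of mature neutrophils summed to 3059, 3890 and 4802 CPM and those of immature neutrophils to 14755, 13874 and 18573 CPM. Both lists lay above the level expected of free RNA in every library. The excess was 188, 890 and 1191 CPM for the mature and 5124, 4183 and 5511 CPM for the immature list. All 10 genes of each list had a UMI there. Their part in the result was not tested.

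The difference between the CSD effect in neutrophils and that in monocytes was tested as an interaction in 1 model, with the library as a block. It was called for 2 of the 8 genes, beside 2.45% of all 3107 genes tested (76 genes). Selplg was 0.44 in neutrophils and -0.26 in monocytes, each fitted in its own class, and the interaction was 0.78 on the log2 scale (SE 0.18, adjusted p = 0.00170 by edgeR). Cd177 was 0.16 in neutrophils and -0.86 in monocytes, with an interaction of 1.10 (SE 0.24, adjusted p = 0.00172). Leaving out either HC library gave 0.77 and 0.79 for Selplg and 1.08 and 1.12 for Cd177, values with no test. Neither gene was called with DESeq2, with free RNA subtracted (where Cd177 had 2.94), or with cells of at least 1000 UMIs only. The same interaction for Itgb2 was 0.57 (SE 0.22, adjusted p = 0.182). Of the wider adhesion list, Fyb, an adaptor that links to integrin activation, was called (0.64, SE 0.16, adjusted p = 0.00456 by edgeR).

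The CSD effect was also compared between mature and immature neutrophils. The interaction was called for 0 of 6 genes tested by edgeR, beside 0.919% of 1741 genes, and for 0 by DESeq2. An unadjusted p under 0.05 by edgeR was found for 0 of the 6, beside 176 of the 1741 genes. Selplg had the largest value, 0.30 (SE 0.17, adjusted p = 0.545). Across the same classes the wider adhesion list gave 204 tests with 0 calls by edgeR and 7 at an unadjusted p under 0.05.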

How the data were processed

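The authors made the libraries with 10x Chromium 3′ v2 chemistry on 3 lanes of 1 chip and deposited raw UMI counts per gene and barcode (Cell Ranger 2 and build mm10 per the submitters' processing notes), with no cells called and no normalization. A barcode's numeric suffix gave its library and was read as the group number of the sample labels. Of the 27998 genes, the 8 members and the 64 genes of the wider adhesion list were taken by symbol. Members, gene lists and tests were chosen with earlier results of these data known, and they are no independent evidence of a direction.

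Barcodes with at least 500 UMIs, a gene number within the study's limits and under 8.3% mitochondrial UMIs were kept. Cells were normalized, 2000 variable genes without the members and the adhesion list gave 50 components, and a mutual-nearest-neighbour correction and Leiden clustering (resolution 1, scanpy 1.11.5) followed. Clusters were named from marker lists. The early immature stage and the split of mature neutrophils by Il1b (resolution 0.2) were chosen after seeing the data. Scrublet doublets (1.92%, 0.940% and 5.19% of cells) were kept, and left out as an alternative. Where its threshold marked too few cells, in CSD replicate 1, the top 5% of scores were taken. The free RNA level of a gene was its share in barcodes of at most 100 UMIs times the free RNA share of the class, which was estimated from genes of other cell types and ranged from 25.1% to 50.2% in the classes reported.

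UMIs were summed per class and library and tested with edgeR 4.0.16 (quasi-likelihood, TMM, R 4.3.3), on genes with a UMI in over 15% of the class, in classes with at least 20 cells in every library. The test was tried on simulated data first. DESeq2 1.42.0, RLE scaling, no filter, free RNA subtracted, cells of at least 1000 UMIs, doublets left out, resolution 2, no nearest-neighbour correction and leaving out each HC library were alternatives. For the interactions, those with other cells or free RNA subtracted were added after seeing the data, as were the stage ratios with free RNA subtracted. All members were named in every comparison, together with adhesion list genes that were called and, for each member, the 3 genes of most similar level over 18 classes. Precision is set by 3 libraries, and shares and their upper limits cover counting error only. Members' places are from GENCODE vM21 on GRCm38. Flow cytometry, imaging and behaviour were not analysed here. Some genes of the marker and adhesion lists are not reported here by name.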

Additional observations from a re-analysis of the deposited data

Results flagged for a closer look

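For 2 of the 8 genes a difference of the CSD effect between neutrophils and monocytes was called in a test of that difference (edgeR, library as a block). Of all 3107 genes tested, 2.45% were called. Selplg differed by 0.78 on the log2 scale, with CSD above both HC libraries in mature neutrophils and below both in monocytes (257, 281 and 225 CPM). Cd177 differed by 1.10, with CSD monocytes at 71.4 CPM below both HC libraries (123 and 136 CPM). Both rested on a single CSD pool of 4 mice, and neither was called in DESeq2 (adjusted p = 1.00), with free RNA subtracted (0.790 and 0.362 by edgeR), or in cells of at least 1000 UMIs (0.0887 and 0.115).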

How the results depend on the processing

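The counts of called members in neutrophils and in single classes stayed at 0 under every alternative run except with every detected gene entered (no filter), where 1 (Selplg) was called in neutrophils and 2 of 112 tests (Selplg in mature neutrophils, Cd177 in pre-B cells) in single classes by edgeR. Of the interaction between neutrophils and monocytes, 2 calls became 0 with DESeq2, free RNA subtracted, or cells of at least 1000 UMIs, and stayed at 2 with RLE scaling, no filter, doublets left out and resolution 2. The cause was not tested. The 4 genes higher in mature neutrophils were 4 under each alternative and without each library in turn, and the class with the highest level was kept for 6 to 8 of the 8 genes. The level moved by over 1 SD in 105 of 144 cases with free RNA subtracted.

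Of 290 fold changes under the alternatives that kept all 3 libraries, 22 changed direction, all with a value between -0.28 and 0.16. Leaving out the filter raised the value of every member tested in neutrophils both with and without it. Those that changed direction there were Itgam 0.047, Itgb2 0.16 and Cd44 0.084 in pooled, Itgam 0.00163, Itgb2 0.012 and Cd44 0.15 in mature and Itgam 0.074 and Cd44 0.036 in immature neutrophils, Itgam 0.018 in the stage interaction, and Itga4 0.052 and Itgb1 0.029 in the interaction with monocytes. With no nearest-neighbour correction they were Cd44 0.039 (pooled), and Itgam 0.12 and Cd44 0.020 (immature). With free RNA subtracted they were Cd177 -0.048 (pooled), -0.11 (mature) and -0.020 (immature), Itgb2 -0.039 (immature), and Selplg -0.28 and Cd177 -0.017 in the stage interaction. Itgam was -0.075 in monocytes of at least 1000 UMIs and 0.047 in the stage interaction at resolution 2. Leaving out either HC library moved 8 of 76 fold changes by over 1 SE. Some of these 76 also changed sign. Without HC replicate 1, Cd44 was 0.028 in pooled and 0.15 in mature neutrophils, and Cd177 was -0.030 in mature neutrophils. Without HC replicate 2, Itgam was -0.017 in monocytes. No paired analysis was possible because the sample labels pair no HC pool with the CSD pool, and replicate numbers only count the pools of a group.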

Other observations

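Over the 18 named classes, the 5803 genes that reached 50 CPM in a class were ranked by Pearson's r of their level, as log2(CPM + 10), with that of each member. The classes share the same 3 libraries and their free RNA, so r is a description only. Cd177 was most like Itgb2l (r = 0.95), which encodes a neutrophil integrin beta chain, Wfdc21 (0.95) and the calprotectin subunit S100a9 (0.94). Itgam was most like Ncf1 (0.92), a subunit of the phagocyte NADPH oxidase, Pilrb1 (0.91) and Siglece (0.91). Itgb2 was most like Pstpip1 (0.93), Arrb2 (0.93) and Samsn1 (0.92). Cd44 was most like S100a6 (0.84), the Src family kinase Fgr (0.84) and Lsp1 (0.82).

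Itgal was most like Cd44 (0.80), with Rab27a (0.80) and Rin3 (0.80) next. Selplg had Cyth4 (0.83), Laptm5 (0.82) and Apbb1ip (0.81), an adaptor of integrin activation. Itga4 had Clec2i (0.86), Wdr89 (0.84) and Gm8730 (0.82), and Itgb1 had Cmc1 (0.85), Arsb (0.83) and Ahnak (0.82). Among the members, Itgam and Itgb2, which encode the 2 chains of Mac-1, had r = 0.83, while Itgal and Itgb2, the chains of LFA-1, had r = 0.41. Itga4 and Itgb1, the chains of VLA-4, had r = 0.15. Each r includes endothelial cells, which held 2 UMIs of Itgal, 0 of Itgb2, 0 of Itgam, 1 of Itga4 and 11 of Itgb1. How far that class moved these values was not tested.

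In pre-B cells, which should lack Cd177, its level was 26.7, 38.4 and 94.4 CPM, where free RNA was expected to give 29.1, 42.6 and 72.8 CPM, so the CSD library alone lay above it.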
